A study of Homo sapiens with 24 samples.

Results

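The comparison set 3 libraries of H1299 cells carrying the K3Q form of SIRT6 against 3 libraries of H1299 cells carrying wild-type SIRT6 (WT), 6 of the 24 RNA-seq libraries in the series. They were chosen by the line and construct named on the library columns, and 3 H1299 libraries with the empty vector (Ctr) are given beside them to show which construct departed from cells without added SIRT6. H1299 is an established human line of non-small cell lung cancer. All the cells were stably infected with lentivirus. K3Q cells carried FLAG-tagged SIRT6 described as an acetylation mimic, WT cells carried FLAG-tagged wild-type SIRT6, and Ctr cells carried the vector without SIRT6. A further 3 libraries carried K3R, described as deficient in acetylation, and the same 4 constructs were put into A549, another lung cancer line. Per the labels the cells grew in RPMI1640 medium with serum. The labels give neither the positions of the lysines changed in K3Q nor the number of clones behind each stable line. The cells' own SIRT6 gene was present in every group. In every group, library 1-1 was the first biological replicate prepared in the first batch, 1-2 was the same replicate in the second batch, and 2-2 was the second replicate in the second batch. Library values below run 1-1, 1-2, 2-2. The labels do not say whether 1-1 and 1-2 came from the same culture, so p-values measure the spread between these libraries, which may be partly technical.

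SIRT6 is an NAD-dependent enzyme of the sirtuin family that sits on chromatin and removes acetyl groups from histone H3, which generally lowers transcription at the genes it occupies. It is known to hold down glycolysis genes together with HIF1A and ribosomal protein genes together with MYC, and it takes part in DNA repair. Replacing a lysine by glutamine removes its positive charge, as acetylation does, and replacing it by arginine keeps the charge while barring acetylation. That is why such mutants are used as stand-ins for the acetylated and the non-acetylated protein.

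The 12 H1299 libraries held between 14943189 and 22856407 gene counts. Levels below are CPM, counts brought to a common scaled library total, which allow comparison of a gene between libraries but not of different genes, because they are not divided by length. Between 2.22% and 3.73% of counts were mitochondrially encoded. The A549 genes AKR1B10, ALDH1A1 and ALDH3A1 reached at most 2.96 CPM in the K3Q, WT and Ctr libraries of H1299, against at least 1191 CPM in A549 libraries, and the fibroblast markers DCN, LUM, COL3A1 and PDGFRA stayed at or below 0.602 CPM. The leading principal component of log2 CPM held 29.94% of the variance, and K3Q libraries scored -21.24, -19.81 and -11.61 on it. WT libraries scored 7.56, 15.24 and 52.99, and Ctr libraries scored between -38.36 and -22.35. WT library 2-2 stood apart from the other WT libraries, as K3R library 2-2, at 45.29, did from the other K3R libraries. The number of genes past the threshold and the counts of several gene lists are therefore also given without both.

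The SIRT6 transcript was higher in K3Q cells than in WT cells, so the constructs differed in amount as well as in sequence. SIRT6 (GRCh38 chromosome 19, 4174109 to 4182563, minus strand) had 15284, 11160 and 14424 CPM in K3Q libraries, against 2746, 2457 and 6748 CPM in WT libraries and 45.3, 34.6 and 38.4 CPM in Ctr libraries. Every K3Q library lay above every WT library, and WT 2-2 lay well above the other WT libraries. The means were 13623 ± 2176 CPM in K3Q and 3984 ± 2399 CPM in WT (SD, n = 3 each), a log2 difference of 1.78 ± 0.35 (SE; edgeR quasi-likelihood test, Benjamini-Hochberg adjusted p = 0.0183). SIRT6 alone took 1.04% to 1.46% of all counts in K3Q libraries and 0.249% to 0.688% in WT libraries. Reads from the introduced copy and from the cells' own gene are counted together, and the counts cannot tell the mutant from the wild-type transcript. The call did not pass without K3Q 1-1 (log2 1.65, adjusted p = 0.104), without WT 1-1 (1.51, adjusted p = 0.0894) or without WT 1-2 (1.53, adjusted p = 0.0547) in the same edgeR test, and the log2 difference was 2.41 without WT 2-2 (adjusted p = 0.0054). Nor did it pass within batch 2 alone (log2 1.47, adjusted p = 0.312) or with 1-1 and 1-2 summed (log2 1.58, adjusted p = 0.168). In every result below, the change of lysines and the larger amount of SIRT6 transcript cannot be told apart.

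None of the other sirtuins passed between K3Q and WT. SIRT1, the nuclear sirtuin that acts on p53 and histones, averaged 42.8 ± 4.18 CPM in K3Q and 37.2 ± 4.50 CPM in WT (SD, n = 3 each), a log2 difference of 0.21 with a 95% interval of -0.03 to 0.44. SIRT5, a mitochondrial desuccinylase, had the log2 difference of lowest p among them, 0.29 with an interval of 0.02 to 0.56 (edgeR quasi-likelihood test, Benjamini-Hochberg adjusted p = 0.21). SIRT7, a nucleolar sirtuin, differed by a log2 of -0.12 with an interval of -0.39 to 0.14. The interval of SIRT4, at under 1 CPM in every K3Q and WT library, ran from -1.18 to 2.20 on the log2 scale, so a change of several fold was not detectable at its depth.

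Across the genome, 563 of 16262 tested genes passed an adjusted p of 0.05 between K3Q and WT, 3.46% of those tested (edgeR quasi-likelihood test, Benjamini-Hochberg). Of these, 229 were higher in K3Q, 1.41% of tested genes, and 334 were lower, 2.05%. All 563 moved in the same direction in the 3 pairs of libraries with the same number, as did 6950 of all tested genes, and in 520 of them no K3Q library overlapped a WT library. For comparison, 1513 of all tested genes, 9.3%, had every K3Q library above every WT library, and 1734, 10.7%, had every K3Q library below. The falls were larger than the rises: the median log2 difference was -0.94 among the genes that fell and 0.57 among those that rose, and 146 of the falls and 26 of the rises had a log2 size over 1. Same-numbered libraries of different constructs deviated together, and with the library number as a replicate block the count was 1946, 12% of tested genes, of which 942 were higher (5.79%) and 1004 lower (6.17%). That set contained all 563. The share of calls that were higher in K3Q was 40.7% in the fit with batch, 27.7% with no batch term, 48.4% with the block and 61.7% with the block after each library's trend over transcript length and G and C content was removed. The number depended on the libraries used, with 41 genes past the threshold without K3Q 1-1, 109 without K3Q 1-2, 849 without K3Q 2-2, 211 without WT 1-1, 260 without WT 1-2, 169 without WT 2-2 and 297 without WT 2-2 and K3R 2-2 together. Within batch 2 alone, 8 genes passed, all lower in K3Q. With 1-1 and 1-2, which share biological replicate 1, summed to 1 library per group, 25 genes passed, 3 higher and 22 lower. Of the 59 genes that passed among those chosen for naming (the sirtuins, the largest rises and falls and members of the gene lists below), 43 lost the call without K3Q 1-1, 33 without K3Q 1-2, 14 without K3Q 2-2, 24 without WT 1-1, 27 without WT 1-2 and 30 without WT 2-2. All 59 kept their direction each time. These runs reuse the libraries on which the genes were chosen, so the kept direction was largely set by the choice and carries no test.

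**Figure D1:**
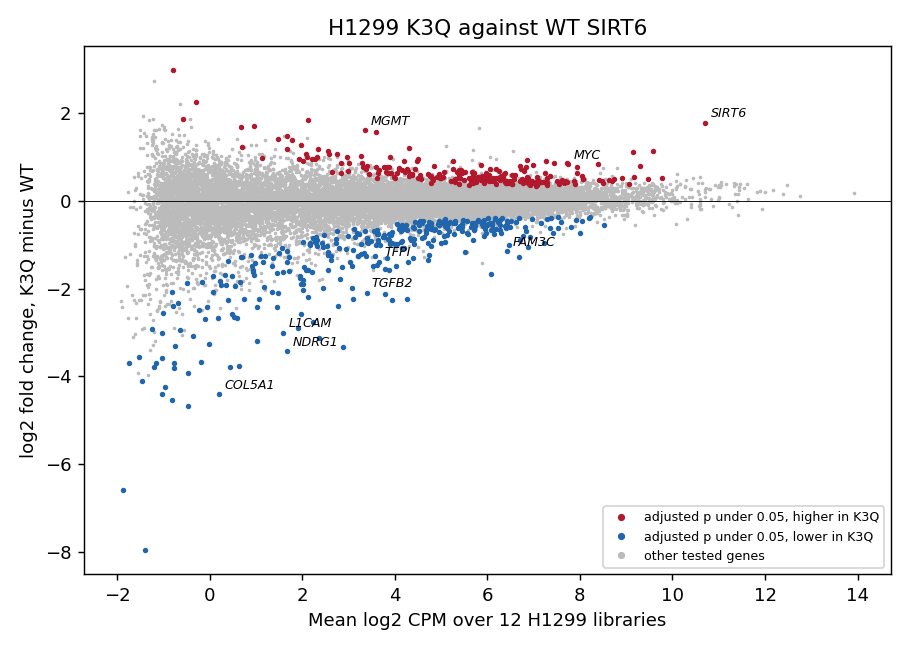
Log2 difference of K3Q minus WT (vertical axis) against mean log2 CPM over the 12 H1299 libraries (horizontal axis) for the 16262 tested genes, with the 229 genes higher in K3Q in red and the 334 lower in blue. The falls reach further from 0 than the rises, and the largest lie at low CPM.

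The empty-vector libraries lay on the K3Q side for most of these genes. Among the 229 genes higher in K3Q, the median log2 difference was 0.17 for K3Q against Ctr and -0.40 for WT against Ctr. Among the 334 lower in K3Q, it was -0.21 for K3Q against Ctr and 0.67 for WT against Ctr. Ctr was nearer to K3Q than to WT for 425 of the 563 genes, 75.5%, and for 55.7% of all tested genes. These figures reuse the K3Q and WT libraries that chose the genes, so they describe position and carry no test. In their own fits, WT against Ctr gave 659 genes past the threshold, 4.05% of those tested (410 higher in WT, 2.52%, and 249 lower, 1.53%). The count was 1585 with the replicate block, and 329 without WT 1-1, 245 without WT 2-2, 300 without Ctr 1-2 and 286 without Ctr 2-2. K3Q against Ctr gave 10 genes, 0.0615% (4 higher in K3Q, 0.0246%, and 6 lower, 0.0369%). That count was 136 with the block, and 4 without K3Q 1-1, 5 without K3Q 1-2, 3 without Ctr 1-1, 6 without Ctr 1-2 and 4 without Ctr 2-2. K3Q against K3R gave 73 genes, 0.449% (15 higher in K3Q, 0.0922%, and 58 lower, 0.357%), and 526 with the block. K3R, at a SIRT6 level of 4332 ± 1651 CPM (SD, n = 3), lay nearer to WT than to K3Q for 503 of the 563 genes, 89.3%, and for 59.5% of all tested genes. The 563 genes were chosen on the K3Q and WT libraries, so this count too describes position and carries no test. It includes WT 2-2 and K3R 2-2, whose deviations from their group means had a correlation of 0.549.

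**Figure D2:**
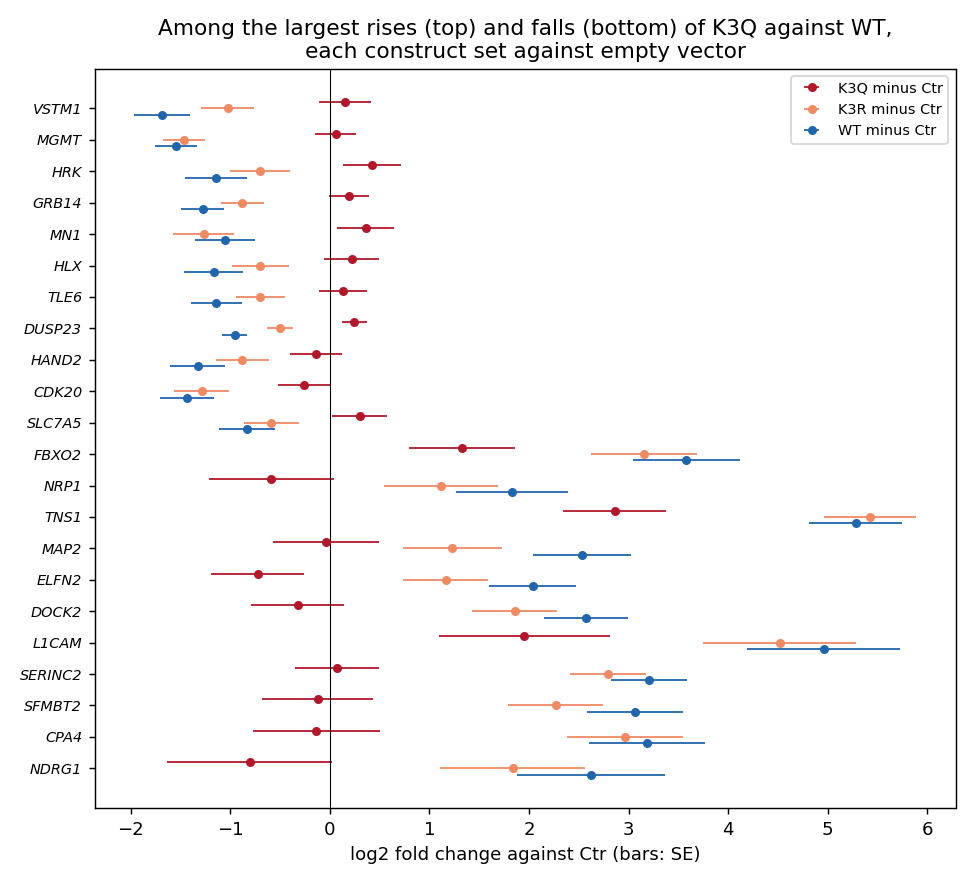
Log2 difference against Ctr (horizontal axis, bars ± SE) of K3Q, K3R and WT for genes among the largest rises (top) and falls (bottom) of K3Q against WT, SIRT6 left out. WT and K3R lie on the same side of 0 for each gene shown, and K3Q lies nearer to 0 than WT in each; the comparisons share libraries.

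Leading genes by p in each direction are given first (chosen for their p after the values were seen). FAM3C, a secreted protein also known as an interleukin-like inducer of epithelial-mesenchymal transition, had 68.9, 56.9 and 53.2 CPM in K3Q libraries, against 143, 115 and 136 CPM in WT libraries and 70.6, 60.2 and 50.8 CPM in Ctr libraries. K3Q and Ctr covered the same range, and all WT libraries lay above it. FAM3C was 2.21-fold lower in K3Q than in WT (log2 -1.14 ± 0.11, edgeR quasi-likelihood test, Benjamini-Hochberg adjusted p = 0.00111). Its pseudogene copy FAM3C2P, with which reads may be shared, also fell (log2 -0.98 ± 0.16, adjusted p = 0.00779 in the same edgeR test), so the split between the copies is uncertain. TFPI, the inhibitor of the tissue factor pathway of blood clotting, had 6.39, 8.45 and 8.80 CPM in K3Q, against 18.5, 21.1 and 21.7 CPM in WT and 5.99, 8.73 and 9.42 CPM in Ctr. The K3Q and Ctr libraries again overlapped while the WT libraries stood apart, and TFPI was 2.61-fold lower in K3Q than in WT (log2 -1.39 ± 0.15, edgeR adjusted p = 0.00189).

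DUSP23, a dual-specificity phosphatase, led the rises by p. It had 29.1, 32.0 and 25.3 CPM in K3Q libraries, against 12.1, 12.9 and 12.5 CPM in WT and 27.1, 21.6 and 24 CPM in Ctr. Each WT library was below each K3Q and each Ctr library, and DUSP23 rose 2.3-fold in K3Q against WT (log2 1.20 ± 0.13, edgeR quasi-likelihood test, Benjamini-Hochberg adjusted p = 0.00189). RAP1GAP2, which switches off the small GTPase Rap1, had 147, 126 and 126 CPM in K3Q, 91.6, 78.4 and 70.9 CPM in WT and 121, 119 and 118 CPM in Ctr, a log2 difference of 0.73 ± 0.09 between K3Q and WT (edgeR adjusted p = 0.00357). QTRT1, the catalytic subunit of the enzyme that puts queuine into tRNA, averaged 79.9 ± 9.96 CPM in K3Q and 45.4 ± 5.31 CPM in WT, with Ctr between them at 60.9 ± 5.03 CPM (SD, n = 3 each). FSD1 averaged 50.8 ± 9.85 CPM in K3Q and 30.5 ± 4.46 CPM in WT (SD, n = 3 each). Both also rose, by log2 0.82 ± 0.11 and 0.73 ± 0.10, with an edgeR adjusted p of 0.00357 each.

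The upstream sequences of the leading pair in each direction are shown because these genes had the lowest p in that direction. They are the 250 bases before the transcription start in RefSeq (GRCh38.p14), written 5′ to 3′ on the strand of the gene: DUSP23 at chr1:159780712-159780961 (plus strand), RAP1GAP2 at chr17:2776508-2776757 (plus), FAM3C at chr7:121396309-121396558 (minus) and TFPI at chr2:187554436-187554685 (minus). For RAP1GAP2, annotated from 2755645, and FAM3C, annotated to 121396396, the start used lies inside the annotated gene, so the window belongs to another transcript start than the outermost. Capitals mark letters that match the GC box GGGCGG, the CCAAT box CCAAT, the E-box CACGTG, the ETS word CCGGAAG, the AP-1 word TGANTCA or the TATA word TATAAA on either strand.
DUSP23: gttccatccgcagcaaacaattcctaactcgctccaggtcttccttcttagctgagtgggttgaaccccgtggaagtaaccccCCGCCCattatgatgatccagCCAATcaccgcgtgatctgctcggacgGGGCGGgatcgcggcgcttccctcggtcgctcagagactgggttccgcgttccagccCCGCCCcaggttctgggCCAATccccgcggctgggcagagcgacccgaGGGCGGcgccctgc
RAP1GAP2: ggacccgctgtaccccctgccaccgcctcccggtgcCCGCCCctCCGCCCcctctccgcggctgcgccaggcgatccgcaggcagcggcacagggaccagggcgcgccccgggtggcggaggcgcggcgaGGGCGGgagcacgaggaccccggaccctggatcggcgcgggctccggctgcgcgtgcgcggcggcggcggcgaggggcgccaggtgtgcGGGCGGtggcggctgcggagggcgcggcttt
FAM3C: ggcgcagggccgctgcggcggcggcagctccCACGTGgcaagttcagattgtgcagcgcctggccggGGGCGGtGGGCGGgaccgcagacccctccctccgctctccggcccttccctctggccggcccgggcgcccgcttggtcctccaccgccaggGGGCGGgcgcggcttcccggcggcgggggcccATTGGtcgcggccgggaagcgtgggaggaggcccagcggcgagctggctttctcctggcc
TFPI: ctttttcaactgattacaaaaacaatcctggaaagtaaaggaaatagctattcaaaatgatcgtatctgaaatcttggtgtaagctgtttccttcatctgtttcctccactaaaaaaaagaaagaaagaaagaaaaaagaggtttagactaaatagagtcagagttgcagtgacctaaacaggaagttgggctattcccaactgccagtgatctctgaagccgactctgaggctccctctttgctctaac
The DUSP23 window held 4 GC boxes and 2 CCAAT words, the RAP1GAP2 window 4 GC boxes, and the FAM3C window 3 GC boxes, 1 CCAAT word and 1 E-box. The TFPI window held none of the words searched and was 38.4% G and C, against 64.8% in DUSP23, 82% in RAP1GAP2 and 78.4% in FAM3C.

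Over all genes that passed, an upstream window of 250 bases was at hand for 189 of the 229 genes higher in K3Q, 256 of the 334 lower in K3Q and 11188 of all tested genes. The ETS word CCGGAAG stood in 20.1% of the windows of genes that rose, 4.69% of those that fell and 15.6% of all tested. The E-box CACGTG, the word bound by MYC and related factors, stood in 13.8%, 5.86% and 8.76% in the same order. GC boxes were in 79.9% of the windows of genes that rose, 65.2% of those that fell and 67.2% of all tested, and the CCAAT word was in 36.5%, 27.7% and 35%. The AP-1 word was in 2.12%, 3.12% and 3.77%, and the TATA word in 4.23%, 5.86% and 5.4%. The median G and C content of the windows was 66% for genes that rose, 67.6% for genes that fell and 65.2% for all tested. A word is a match of letters and was not tested as a binding site.

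The genes that rose and fell also differed in transcript length and base content. Genes that fell had a median transcript of 5323 bases, against 2731 bases for genes that rose and 3508.5 bases for all tested. The median G and C content of the transcripts was 45.66% for genes that fell, 57.44% for genes that rose and 48.32% for all tested. The libraries themselves varied with transcript length: the longest 10% of transcripts minus the shortest 10% gave a median log2 deviation of -0.32, -0.16 and 0.13 in K3Q libraries, 0.06, 0.19 and 0.09 in WT libraries and -0.15, 0.18 and 0.11 in Ctr libraries. K3Q 1-1 and 1-2 lay below every WT library on this measure and K3Q 2-2 did not. With each library's trend over transcript length and G and C content removed, 521 genes passed, 229 higher and 292 lower.

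Among the largest rises were a DNA repair enzyme, regulators of development and an amino acid transporter. MGMT, which removes alkyl groups from guanine in DNA, had 18.3, 21.1 and 13.9 CPM in K3Q libraries, against 6.04, 4.71 and 6.74 CPM in WT and 19.5, 13.1 and 18.5 CPM in Ctr. K3Q and Ctr overlapped, WT lay below both, and MGMT rose 3.04-fold in K3Q against WT (log2 1.60 ± 0.21, edgeR quasi-likelihood test, Benjamini-Hochberg adjusted p = 0.00357). VSTM1, an inhibitory receptor known from leukocytes, had 8.63, 8.09 and 5.87 CPM in K3Q, against 2.32, 2.27 and 1.71 CPM in WT and 9.18, 7.25 and 4.20 CPM in Ctr, and rose 3.56-fold against WT (edgeR adjusted p = 0.00637). GRB14, an adaptor that binds and restrains the insulin receptor, had 5.36, 4.58 and 5.05 CPM in K3Q, against 2.09, 1.55 and 1.77 CPM in WT and 4.28, 4.22 and 4.60 CPM in Ctr. It rose 2.77-fold against WT (edgeR adjusted p = 0.00539). For all of them the WT libraries were the low ones.

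Several transcription regulators were higher in K3Q than in WT, at low levels. MN1, a coregulator rearranged in some leukaemias, averaged 4.89 ± 0.62 CPM in K3Q and 1.85 ± 0.33 CPM in WT (SD, n = 3 each), a 2.66-fold rise (edgeR quasi-likelihood test, Benjamini-Hochberg adjusted p = 0.0258). The homeobox gene HLX averaged 5.29 ± 1.30 CPM in K3Q and 1.99 ± 0.55 CPM in WT, and HAND2, a basic helix-loop-helix factor of heart and limb development, 4.45 ± 1.81 CPM in K3Q and 1.97 ± 1.06 CPM in WT. TLE6, of the Groucho family of corepressors, averaged 5.87 ± 1.83 CPM in K3Q and 2.42 ± 0.94 CPM in WT. These 3 rose by 2.61-fold, 2.28-fold and 2.42-fold, with edgeR adjusted p of 0.0249, 0.0357 and 0.0193. Ctr averaged 3.86 ± 1.58 CPM for MN1, 4.51 ± 0.07 for HLX, 4.77 ± 1.18 for HAND2 and 5.28 ± 1.65 for TLE6. For each of them the K3Q and Ctr means both lay above the WT mean, and for HAND2 the K3Q mean was below Ctr. Without WT 2-2 none of these calls held (edgeR adjusted p = 0.085 for MN1, 0.0898 for HLX, 0.119 for HAND2 and 0.073 for TLE6). HRK, which promotes apoptosis by binding BCL2 proteins, had 20.6, 16.7 and 25.7 CPM in K3Q, against 9.31, 5.93 and 5.67 CPM in WT and 10.3, 14.3 and 23.1 CPM in Ctr. The Ctr libraries spread across the gap between the other groups, and HRK rose 2.97-fold in K3Q against WT (edgeR adjusted p = 0.0178). CDK20, a kinase related to the cyclin-dependent kinases, averaged 7.13 ± 1.60 CPM in K3Q, 3.15 ± 1.02 CPM in WT and 8.49 ± 1.77 CPM in Ctr (SD, n = 3 each) and rose 2.26-fold against WT (edgeR adjusted p = 0.0372).

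The largest falls among genes averaging 1 or more in log2 CPM were of several fold. SERINC2, a membrane protein of the serine incorporator family, had 1.71, 2.43 and 1.63 CPM in K3Q libraries, against 9.49, 18.5 and 23.2 CPM in WT and 2.70, 1.13 and 1.36 CPM in Ctr. The K3Q and Ctr ranges overlapped far below WT, and SERINC2 was 8.76-fold lower in K3Q than in WT (log2 -3.13 ± 0.38, edgeR quasi-likelihood test, Benjamini-Hochberg adjusted p = 0.00357). SFMBT2, a Polycomb-related protein, had 0.63, 0.93 and 0.71 CPM in K3Q, against 3.86, 7.82 and 9.45 CPM in WT and 1.44, 0.42 and 0.40 CPM in Ctr, a 9.10-fold fall against WT (edgeR adjusted p = 0.00539). TNS1, a tensin that links integrins to actin, had 1.32, 2.08 and 2.17 CPM in K3Q, against 6.81, 11.8 and 11.2 CPM in WT. Its Ctr libraries lay lowest, at 0.41, 0 and 0.28 CPM, so here K3Q stood between Ctr and WT. TNS1 fell 5.35-fold against WT (edgeR adjusted p = 0.00539), and its log2 difference of 2.86 ± 0.52 against Ctr did not pass (adjusted p = 0.0929 in the same edgeR test) but did with the replicate block (adjusted p = 0.0263).

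For some of the largest falls, WT 2-2 lay well above the other WT libraries, and the calls depended on it for some of these genes only. CPA4, a secreted carboxypeptidase, had 2.15, 2.00 and 3.69 CPM in K3Q, against 17.6, 13.3 and 48.7 CPM in WT and 4.86, 1.01 and 2.50 CPM in Ctr. NDRG1, a stress- and hypoxia-induced gene, had 1.51, 1.07 and 0.76 CPM in K3Q, against 4.82, 6.49 and 24.5 CPM in WT and 3.83, 0.475 and 1.48 CPM in Ctr. The WT library 2-2 was the highest library for both, and every WT library was above every K3Q library. CPA4 was 9.99-fold and NDRG1 10.8-fold lower in K3Q than in WT (edgeR quasi-likelihood test, Benjamini-Hochberg adjusted p = 0.0116 and 0.0334). CPA4 kept its call without WT 2-2, and lost it without K3Q 1-1 and without K3Q 1-2 (edgeR adjusted p = 0.0885 and 0.0663). The NDRG1 difference was a log2 of -2.32 without WT 2-2, where it did not pass (edgeR adjusted p = 0.104), compared with -3.43 with it. It passed neither without K3Q 1-1, without K3Q 1-2 nor without K3Q 2-2 (edgeR adjusted p = 0.14, 0.135 and 0.081). DOCK2, an activator of Rac best known in leukocytes, averaged 1.72 ± 1.12 CPM in K3Q and 13.0 ± 11.8 CPM in WT (SD, n = 3 each) and fell 7.44-fold (edgeR adjusted p = 0.00539). DOCK2 also kept its call without WT 2-2, and lost it in batch 2 alone and with biological replicate 1 summed (edgeR adjusted p = 0.0854 and 0.115). FBXO2, the glycoprotein-binding subunit of a ubiquitin ligase, averaged 10.8 ± 4.60 CPM in K3Q, 47.8 ± 28.4 CPM in WT and 4.41 ± 3.53 CPM in Ctr, and fell 4.76-fold against WT (edgeR adjusted p = 0.0283). FBXO2 stood at log2 -1.42 without WT 2-2, compared with -2.25 with it, and did not pass (edgeR adjusted p = 0.0898). Nor did it pass without K3Q 1-1, K3Q 1-2 or K3Q 2-2 (edgeR adjusted p = 0.133, 0.12 and 0.0663).

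**Figure D3:**
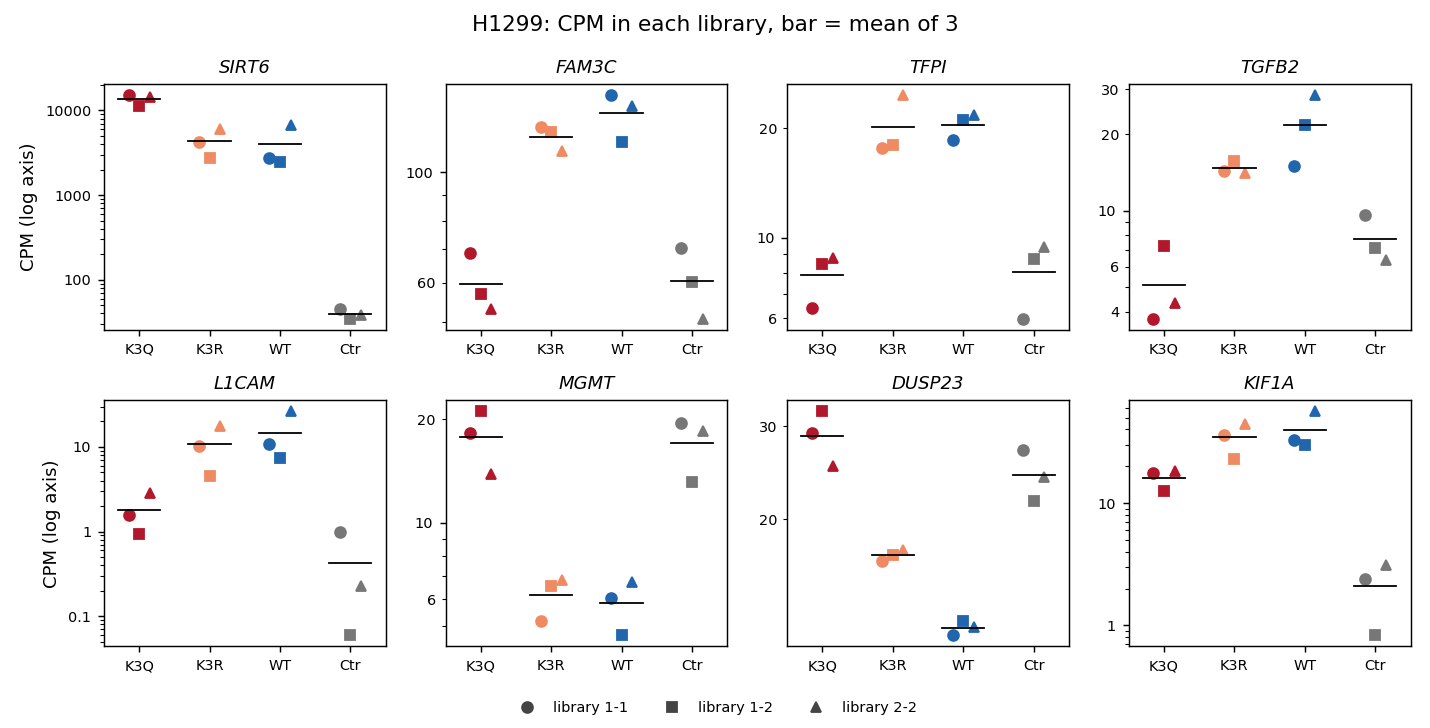
CPM of 8 genes in each H1299 library (log axis; circle 1-1, square 1-2, triangle 2-2; bar at the mean of 3). K3Q and Ctr overlap apart from WT in FAM3C, TFPI, MGMT and DUSP23, K3Q lies between Ctr and WT in KIF1A, and SIRT6 is highest in K3Q.

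Genes of neurons and axon guidance had the highest share of members past the threshold of the lists in the fit with batch, though not under the replicate block, where ribosomal proteins had 57.7% and neuronal genes 52.2%, nor without WT 2-2 and K3R 2-2. The lists of genes used here were drawn up with earlier results of these data known, so their counts describe these libraries. Of 23 tested members, 10 fell in K3Q against WT and 0 rose, 43.5% against 3.46% of all tested genes, and 20 of 23 had a negative difference. The median log2 difference was -0.79, compared with 0.0036 over all tested genes, and it was -0.53, -0.78 and -1.13 in the pairs 1-1, 1-2 and 2-2. Class 3 semaphorins, the secreted guidance cues, and their neuropilin receptors fell together: SEMA3E had 12.1 ± 1.49 CPM in K3Q and 25.3 ± 3.44 CPM in WT, SEMA3C 32.7 ± 2.41 CPM in K3Q and 73.2 ± 25.6 CPM in WT, and NRP1 0.97 ± 0.18 CPM in K3Q and 5.20 ± 1.85 CPM in WT (SD, n = 3 each). Their edgeR adjusted p was 0.00423, 0.0164 and 0.0414. SEMA3D and NRP2 also passed, with log2 differences of -1.85 and -0.77 (edgeR quasi-likelihood test, Benjamini-Hochberg adjusted p = 0.0328 and 0.0372). SEMA3A, at log2 -0.79, and the plexin receptor PLXND1, at -0.54, did not (edgeR adjusted p = 0.0533 and 0.0637).

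Adhesion and synaptic members of this list passed as well. L1CAM, the neural adhesion molecule that guides axon growth, had 1.56, 0.93 and 2.88 CPM in K3Q libraries, against 10.7, 7.32 and 26.3 CPM in WT and 0.99, 0.06 and 0.23 CPM in Ctr. WT libraries stood above all K3Q and Ctr libraries, and the fall against WT was 8.04-fold (log2 -3.01 ± 0.64, edgeR quasi-likelihood test, Benjamini-Hochberg adjusted p = 0.026). It did not pass without WT 2-2 (log2 -2.23, edgeR adjusted p = 0.0953), without K3Q 1-1 (adjusted p = 0.151) or without K3Q 1-2 (adjusted p = 0.12). SNAP25 and SYT1, parts of the machinery of synaptic vesicle release, fell by log2 1.02 ± 0.22 and 0.84 ± 0.20, and the ephrin receptor EPHB2 fell by 0.86 ± 0.18 (edgeR adjusted p = 0.0265, 0.0371 and 0.0256). Under the replicate block 12 members fell and 0 rose, 52.2% beside 12% of all tested genes. Without WT 2-2 and K3R 2-2, 3 fell and 0 rose (13%, beside 1.78%), at a median of -0.62. With the trend over length and G and C content removed, 8 fell (34.8%, beside 3.59%). With biological replicate 1 summed, 2 of 26 fell (7.69%, beside 0.14%). Outside the list, MAP2, a microtubule protein of dendrites, ELFN2, a postsynaptic adhesion protein, and SLC6A17, a transporter of synaptic vesicles, fell 5.94-fold, 6.79-fold and 3.94-fold (edgeR adjusted p = 0.0164, 0.00779 and 0.0033). No member passed among 6 neuroendocrine tumour markers tested.

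In the TGF-beta and BMP pathway, where secreted ligands are held by binding proteins in the matrix and act through receptors and SMAD proteins, 4 of 23 tested members fell and 0 rose, 17.4% against 3.46% of all tested genes, with a median log2 difference of -0.56. TGFB2, a ligand, had 3.75, 7.23 and 4.35 CPM in K3Q libraries, against 15, 21.7 and 28.5 CPM in WT and 9.63, 7.13 and 6.41 CPM in Ctr. WT lay above K3Q and Ctr in every library, and TGFB2 was 4.28-fold lower in K3Q than in WT (log2 -2.10 ± 0.26, edgeR quasi-likelihood test, Benjamini-Hochberg adjusted p = 0.00357). LTBP2 and LTBP3, which bind latent ligands in the matrix, fell by log2 0.63 ± 0.15 and 0.72 ± 0.17 (edgeR adjusted p = 0.0354 and 0.0358). SMAD6, an inhibitory SMAD induced by BMP signalling, had 3.71, 7.80 and 7.66 CPM in K3Q, against 6.04, 13.9 and 23.7 CPM in WT and 4.46, 7.25 and 8.23 CPM in Ctr, and fell with an edgeR adjusted p of 0.0452. Its K3Q and WT ranges overlapped between libraries of different number. SMAD6 did not pass with no batch term (edgeR adjusted p = 0.202) or without WT 2-2 and K3R 2-2 (log2 -0.74, edgeR adjusted p = 0.0967). The receptors TGFBR2 and BMPR2, at log2 -0.41 and -0.37, and the target ID1, at -0.56, did not pass (edgeR adjusted p = 0.0888, 0.0801 and 0.121). Under the replicate block 10 members fell and 0 rose, 43.5% beside 12% of all tested genes. Without WT 2-2 and K3R 2-2, 2 fell (8.7%, beside 1.78%).

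The collagen and basement membrane genes that passed all fell. Of 17 collagen genes tested, 2 fell and 0 rose, 11.8% beside 3.46% of all tested genes. A negative difference was seen in 15, and the median log2 difference was -0.59. With the trend over transcript length and G and C content removed, 1 fell (5.88%, beside 3.59%) and the median was -0.47. COL5A1, a fibrillar collagen chain, had 0.29, 0.29 and 0.11 CPM in K3Q libraries, against 5.68, 3.38 and 3.60 CPM in WT and 1.53, 0.30 and 0.23 CPM in Ctr, which is 12 counts over the K3Q libraries, 247 over WT and 43 over Ctr. It was 21.3-fold lower in K3Q than in WT (log2 -4.41 ± 0.52, edgeR quasi-likelihood test, Benjamini-Hochberg adjusted p = 0.0033). COL12A1, a collagen that bridges fibrils, averaged 60.7 ± 5.56 CPM in K3Q, 86.1 ± 4.74 CPM in WT and 48.2 ± 7.23 CPM in Ctr (SD, n = 3 each; edgeR adjusted p = 0.0476), and did not pass with that trend removed (log2 -0.35, edgeR adjusted p = 0.145). Of 14 basement membrane genes, 12 had a negative difference and 1 fell (7.14%): LAMB1, a laminin chain, had 49.7, 61.9 and 79.0 CPM in K3Q, against 87.1, 107 and 106 CPM in WT (edgeR adjusted p = 0.0216). The replicate block gave 6 collagens (35.3%) and 6 basement membrane genes (42.9%) lower and 0 higher, beside 12% of all tested genes. Without WT 2-2 and K3R 2-2, 1 of each fell (5.26% and 7.14%, beside 1.78%).

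Mesenchymal genes and matrix proteases held both falls and rises. Of 28 mesenchymal genes tested, 4 fell and 1 rose, 17.9% beside 3.46% of all tested genes, with a median log2 difference of -0.18. The matrix glycoprotein FBN1 averaged 51.6 ± 2.88 CPM in K3Q and 85.5 ± 1.5 CPM in WT (SD, n = 3 each; log2 -0.73 ± 0.10, edgeR quasi-likelihood test, Benjamini-Hochberg adjusted p = 0.00404), and TGFBI, a secreted adhesion protein, had 37.4, 69.4 and 96.4 CPM in K3Q, against 76.5, 199 and 232 CPM in WT and 70.3, 89.5 and 135 CPM in Ctr. The K3Q and WT ranges of TGFBI overlapped between libraries of different number, and it fell by log2 1.28 ± 0.20 in the fit with batch (edgeR adjusted p = 0.00693). LOX and LOXL2, which cross-link collagen, fell by log2 1.48 ± 0.33 and 0.42 ± 0.10 (edgeR adjusted p = 0.0301 and 0.0429).

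Among 17 matrix proteases and inhibitors, 2 fell and 1 rose, 17.6% beside 3.46% of all tested genes. MMP2, a gelatinase, had 1.56, 2.86 and 2.93 CPM in K3Q libraries, against 3.63, 9.20 and 16.8 CPM in WT and 1.58, 0.59 and 2.84 CPM in Ctr, a 3.73-fold fall against WT (edgeR quasi-likelihood test, Benjamini-Hochberg adjusted p = 0.0341). MMP15, a membrane-bound metalloprotease, averaged 1.53 ± 0.52 CPM in K3Q and 4.99 ± 2.63 CPM in WT (SD, n = 3 each; edgeR adjusted p = 0.0487). Without WT 2-2 and K3R 2-2, 0 of the proteases fell and 1 member rose (5.88%, beside 1.78% of all tested genes). The mesenchymal list with the block had 4 genes up and 4 down (28.6%). The protease list had 1 up and 5 down (35.3%), beside 12% of all tested genes.

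**Figure D4:**
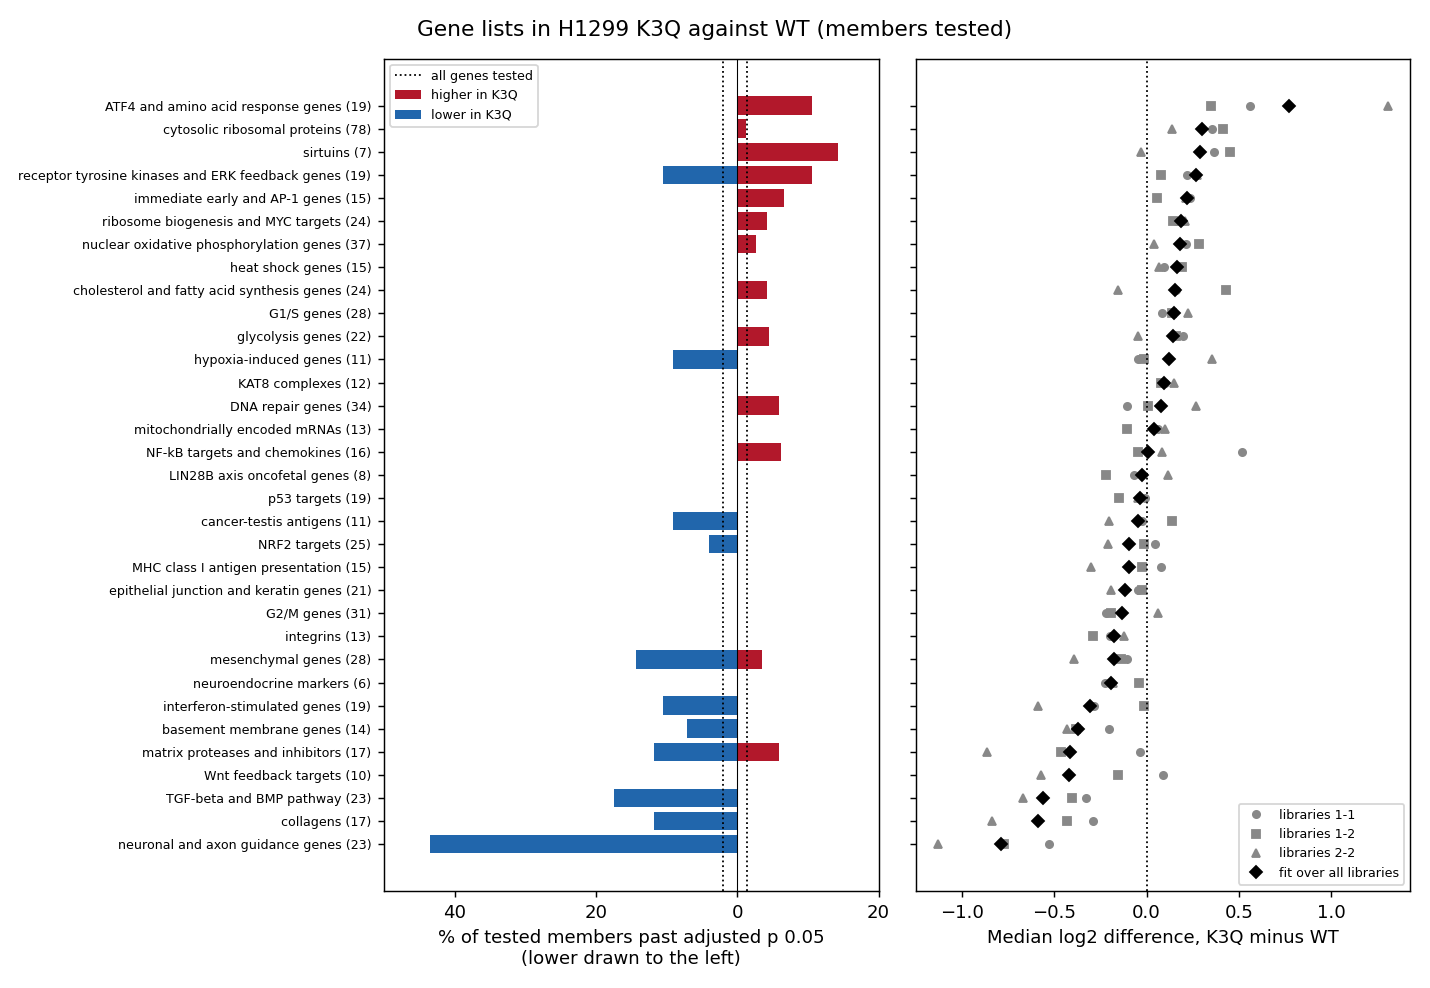
For each gene list (number of tested members in brackets), the percentage of tested members past the threshold in K3Q against WT, higher drawn right and lower drawn left (left panel, dotted lines at the percentages over all tested genes), and the median log2 difference K3Q minus WT in the fit and in each pair of same-numbered libraries (right panel). Neuronal and axon guidance genes lie lowest at a median of -0.79, and ATF4 and amino acid response genes highest at 0.78.

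Interferon-stimulated genes, the antiviral response genes, had 2 of 19 tested members lower and 0 higher (10.5%, beside 3.46% of all tested genes). Their median log2 difference was -0.31. IFIT1, which binds viral RNA, had 4.05, 1.43 and 2.55 CPM in K3Q libraries, against 9.86, 4.32 and 8.92 CPM in WT and 5.81, 2.32 and 2.10 CPM in Ctr. IFI44 averaged 0.59 ± 0.23 CPM in K3Q and 2.78 ± 0.49 CPM in WT (SD, n = 3 each). They fell by log2 1.56 ± 0.33 and 2.25 ± 0.51 (edgeR quasi-likelihood test, Benjamini-Hochberg adjusted p = 0.0232 and 0.032). Blocking on the library number gave 5 lower and 0 higher, 26.3% beside 12% of all tested genes. In the MHC class I list 0 of 15 passed, and 11 had a negative difference.

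Growth factor receptors and the feedback genes of the ERK pathway were split. Of 19 tested members 2 rose and 2 fell, 21.1% beside 3.46% of all tested genes, with a median log2 difference of 0.27. FGFR3 had 4, 3.65 and 5.11 CPM in K3Q libraries, against 8.77, 12.2 and 24.8 CPM in WT and 4.82, 2.61 and 2.84 CPM in Ctr, a 3.46-fold fall against WT (edgeR quasi-likelihood test, Benjamini-Hochberg adjusted p = 0.0296). Its paralogue FGFR4 averaged 18.9 ± 5.36 CPM in K3Q and 10.9 ± 1.33 CPM in WT (SD, n = 3 each) and rose 1.72-fold (edgeR adjusted p = 0.0423). DUSP5, a nuclear phosphatase that is induced by ERK and acts on it, had 144, 157 and 202 CPM in K3Q, against 80.8, 97.6 and 86.3 CPM in WT and 103, 105 and 151 CPM in Ctr. K3Q was the highest group by mean, and DUSP5 rose 1.90-fold against WT (edgeR adjusted p = 0.00659). Blocking on the library number gave 4 higher and 2 lower, 31.6% beside 12% of all tested genes.

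MYC, a transcription factor of cell growth, was the member of 15 immediate early and AP-1 genes that passed (6.67%, beside 3.46% of all tested genes). It had 273, 247 and 333 CPM in K3Q libraries, against 158, 169 and 152 CPM in WT and 241, 208 and 306 CPM in Ctr. K3Q and Ctr overlapped and both lay above WT, and MYC rose 1.78-fold in K3Q against WT (log2 0.83 ± 0.14, edgeR quasi-likelihood test, Benjamini-Hochberg adjusted p = 0.00947). Among 24 ribosome biogenesis genes and MYC targets, CAD, the enzyme that starts pyrimidine synthesis, passed (4.17%, near the share of all tested genes) and 19 had a positive difference. CAD averaged 276 ± 7.92 CPM in K3Q and 212 ± 16.3 CPM in WT (SD, n = 3 each; log2 0.38 ± 0.09, edgeR adjusted p = 0.0363). The block gave 8 of these 24 higher and 0 lower (33.3%), and 3 of the 15 immediate early genes higher (20%), beside 12% of all tested genes.

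Among 78 genes for cytosolic ribosomal proteins, 1 passed (1.28%, beside 3.46% of all tested genes) and 76 had a positive difference. The list's median log2 difference between K3Q and WT was 0.30. The pair medians were 0.35, 0.42 and 0.14, the last being pair 2-2. RPS9, of the small subunit, had 1286, 1167 and 835 CPM in K3Q libraries, against 854, 735 and 694 CPM in WT and 870, 801 and 739 CPM in Ctr (log2 0.52 ± 0.12, edgeR quasi-likelihood test, Benjamini-Hochberg adjusted p = 0.0341). Under the replicate block 45 rose and 0 fell, 57.7% beside 12% of all tested genes. Without WT 2-2 and K3R 2-2, 0 passed, at a median of 0.29. Here Ctr lay with WT: the list's median was 0.24 for K3Q against Ctr and -0.05 for WT against Ctr. These transcripts are short, and K3Q 1-1 and 1-2, the libraries behind the larger pair medians, were low in long transcripts as given above. Whether transcript length bears on the list's difference was not tested. With each library's trend over length and G and C content removed, 0 passed, RPS9 had an adjusted p of 0.0902 at log2 0.45, and the list's median was 0.26 with 75 of 78 positive, beside a median of 0.05 over all genes. With trend and block, 45 rose and 0 fell, 57.7% beside 16.2% of all tested genes.

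Nuclear genes of oxidative phosphorylation showed a smaller difference, with 1 of 37 passing (2.7%), 33 positive and a median log2 difference of 0.18. The gene that passed was ATP5MC1, which encodes a subunit of the ATP synthase ring, at 157 ± 14.4 CPM in K3Q and 115 ± 11.9 CPM in WT (SD, n = 3 each; edgeR quasi-likelihood test, Benjamini-Hochberg adjusted p = 0.0484). Of the 13 mitochondrially encoded mRNAs, 0 passed. Among 22 glycolysis genes, the set SIRT6 is best known to repress, HK2 passed (4.55%) and 15 had a positive difference, with a median of 0.14. Both shares were near the 3.46% of all tested genes. HK2, a hexokinase that starts glycolysis, had 92.9, 86.0 and 105 CPM in K3Q libraries, against 68.5, 55.2 and 48.7 CPM in WT and 79.3, 85.3 and 92.6 CPM in Ctr. K3Q and Ctr overlapped above WT, and HK2 rose 1.65-fold against WT (log2 0.72 ± 0.13, edgeR adjusted p = 0.0114). The block gave 5 genes of oxidative phosphorylation and 2 of glycolysis higher and 0 lower, 13.5% and 9.09% of members, beside 12% of all tested genes, so these shares were near the background.

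All 19 genes of the ATF4 and amino acid response, the programme that supplies amino acids under stress, had a positive difference between K3Q and WT. Of these, 2 passed (10.5%, beside 3.46% of all tested genes). The median log2 difference was 0.78, and it was 0.56, 0.35 and 1.31 in the pairs 1-1, 1-2 and 2-2. SLC7A5, the catalytic chain of the LAT1 transporter of large neutral amino acids, had 1549, 899 and 1129 CPM in K3Q libraries, against 740, 510 and 387 CPM in WT and 731, 662 and 1420 CPM in Ctr. The Ctr libraries spread across the K3Q and WT ranges, and SLC7A5 rose 2.19-fold in K3Q against WT (log2 1.13 ± 0.28, edgeR quasi-likelihood test, Benjamini-Hochberg adjusted p = 0.0444). SHMT2, the mitochondrial enzyme that splits serine, had 440, 280 and 302 CPM in K3Q, against 251, 185 and 160 CPM in WT and 240, 200 and 315 CPM in Ctr, and rose 1.71-fold (edgeR adjusted p = 0.0279). SLC3A2, the heavy chain of the same transporter, ATF4 itself and the serine synthesis enzyme PSAT1 stood at log2 0.74, 0.63 and 0.83 without passing (edgeR adjusted p = 0.0769, 0.109 and 0.178). Under the block 4 members rose and 0 fell, 21.1% beside 12% of all tested genes. Without WT 2-2 and K3R 2-2, 0 passed, at a median of 0.65.

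Other lists held 1 or 2 members that passed. Their shares were 5.88% in DNA repair, 6.25% among NF-kB targets and chemokines and 4.17% in cholesterol and fatty acid synthesis. They were 4% among NRF2 targets, 9.09% among hypoxia-induced genes and 9.09% among cancer-testis antigens. Over all tested genes 3.46% passed, so several of these shares were near the background. In DNA repair, MGMT and ERCC2, a helicase of nucleotide excision repair, rose among 34 genes. ERCC2 averaged 239 ± 22.8 CPM in K3Q and 173 ± 2.53 CPM in WT (SD, n = 3 each; log2 0.46 ± 0.12, edgeR quasi-likelihood test, Benjamini-Hochberg adjusted p = 0.0452). CXCL2, a chemokine for neutrophils, had 267, 158 and 174 CPM in K3Q, against 132, 84.1 and 98.8 CPM in WT and 219, 155 and 239 CPM in Ctr, and rose alone among 16 NF-kB targets and chemokines (edgeR adjusted p = 0.018). FDPS, an enzyme of the mevalonate pathway, rose alone among 24 genes of cholesterol and fatty acid synthesis (log2 0.50 ± 0.10, edgeR adjusted p = 0.0164). GCLM, the regulatory subunit of the enzyme that starts glutathione synthesis, fell alone among 25 NRF2 targets (log2 -0.43 ± 0.11, edgeR adjusted p = 0.0452). It was -0.27 and did not pass with the trend over transcript length and G and C content removed (edgeR adjusted p = 0.208). NDRG1 was the 1 of 11 hypoxia-induced genes that passed. SPANXB1, of a family of near-identical testis genes whose reads may be shared, was the 1 of 11 cancer-testis antigens that passed, with 0 counts over the K3Q libraries, 36 over WT and 2 over Ctr, where a count of 0 allows up to 0.0567 CPM over the K3Q group. The block gave 4 rises and 1 fall in DNA repair (14.7% of members), 4 rises among NF-kB targets and chemokines (25%), 3 rises and 2 falls in cholesterol and fatty acid synthesis (20.8%), 1 rise and 5 falls among NRF2 targets (24%) and 2 falls among hypoxia-induced genes (18.2%), beside 12% of all tested genes.

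No member passed among 21 epithelial junction and keratin genes, 28 G1/S genes, 31 G2/M genes, 19 p53 targets, 15 heat shock genes, 13 integrins, 10 Wnt feedback targets, 8 genes of the LIN28B axis or 12 genes of the KAT8 complexes in the fit with batch. Their median log2 differences lay between -0.42, for the Wnt feedback targets, and 0.16, for the heat shock genes. With the library number as a block, 12% of all tested genes passed. Above that share, 8 G1/S genes rose and 0 fell (28.6%), and 1 integrin rose and 4 fell (38.5%). Among p53 targets 1 rose and 3 fell (21.1%). Near or below it, 2 heat shock genes (13.3%), 1 KAT8 complex gene (8.33%) and 1 gene of the LIN28B axis (12.5%) rose. Of the G2/M genes 1 rose and 3 fell (12.9%), also near that share.

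A few genes separated K3Q from the empty vector. Of the 10 genes past the threshold in K3Q against Ctr, 5 also passed in K3Q against WT: SIRT6, KIF1A, LIFR, FHOD3 and SIRPA (named because of that result). KIF1A, a kinesin motor of axonal transport, had 17.7, 12.5 and 18.2 CPM in K3Q libraries, against 33.1, 30.1 and 56.2 CPM in WT and 2.39, 0.83 and 3.12 CPM in Ctr. The groups did not overlap, with K3Q between the others, and KIF1A was 2.46-fold lower than in WT (edgeR quasi-likelihood test, Benjamini-Hochberg adjusted p = 0.0469) and higher than in Ctr by log2 2.92 (edgeR adjusted p = 0.0108). LIFR, the receptor of leukaemia inhibitory factor, had 4.53, 5.01 and 3.58 CPM in K3Q, against 9.09, 9.09 and 9.93 CPM in WT and 8.28, 14.4 and 9.76 CPM in Ctr. FHOD3, a formin that assembles actin, had 12.8, 12.5 and 12.2 CPM in K3Q, against 18.5, 20.1 and 17.1 CPM in WT and 23.9, 20.9 and 21.8 CPM in Ctr. In LIFR and FHOD3 the K3Q libraries were the low ones, at log2 differences of -1.10 and -0.57 against WT (edgeR adjusted p = 0.015 and 0.0262) and -1.28 and -0.83 against Ctr (0.0454 and 0.0212).

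SIRPA, the receptor for the CD47 signal on myeloid cells and neurons, fell in steps over the groups, with 0.73, 0.72 and 0.65 CPM in K3Q, 1.59, 1.66 and 1.89 CPM in WT and 4.46, 4.34 and 4.82 CPM in Ctr. K3Q was 2.43-fold lower than WT (edgeR quasi-likelihood test, Benjamini-Hochberg adjusted p = 0.032). The other 5 genes differed between K3Q and Ctr without passing between K3Q and WT. MVB12B, a subunit of the ESCRT sorting machinery, averaged 2.77 ± 1.04 CPM in K3Q, 2.35 ± 0.17 CPM in WT and 11.3 ± 1.16 CPM in Ctr (SD, n = 3 each). Its log2 difference between K3Q and WT was 0.23 with a 95% interval of -0.42 to 0.88. UBASH3B, a phosphatase that restrains tyrosine kinase signalling, averaged 16.6 ± 1.38 CPM in K3Q, 18.7 ± 0.65 CPM in WT and 37.9 ± 4.36 CPM in Ctr, with an interval of -0.45 to 0.11 between K3Q and WT. FAM210A averaged 93.1 ± 11.6 CPM in K3Q, 92.5 ± 4.04 CPM in WT and 51.5 ± 4.41 CPM in Ctr, with an interval of -0.23 to 0.25. RAB15, a small GTPase, had an interval of -0.48 to 0.04 between K3Q and WT. The transcript RP11-284F21.10 had an interval of 0.17 to 0.68 and missed the adjusted threshold (edgeR adjusted p = 0.0707).

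In A549 the same pair of constructs gave 1 gene of 16120 past the threshold, 0.0062% (edgeR quasi-likelihood test, Benjamini-Hochberg). It was SPANXB1, lower in K3Q (log2 -2.25 ± 0.24, adjusted p = 0.0248), which also fell in H1299. SIRT6 there differed by a log2 of -0.44 between K3Q and WT without passing (adjusted p = 0.82). The difference between the lines was tested with an interaction term over all 24 libraries, where 119 of 18102 genes passed, 0.657%, 38 with a difference further up in H1299, 0.21%, and 81 with a difference further down, 0.447%. SIRT6 itself passed this interaction (log2 2.22 ± 0.45, edgeR adjusted p = 0.026). The lines thus differed in how much more SIRT6 transcript K3Q held than WT, and line and SIRT6 amount cannot be told apart here. With the library number as a block in each line the count was 556. A549 libraries K3Q 1-2 and 2-2 were closer to each other than other replicate pairs (chi-square per degree of freedom of 2.6, against 41.14 and 43.89 for the other pairs of that group). With that pair summed to 1 library 40 genes passed, and without WT 2-2 and K3R 2-2 of H1299 63 passed. TFPI showed the interaction of lowest p: in this fit it had 6.07, 8.01 and 8.34 CPM in K3Q and 17.6, 20.1 and 20.2 CPM in WT of H1299, and 73.2, 39.3 and 37.7 CPM in K3Q and 47.1, 27.7 and 28.1 CPM in WT of A549. It was lower in K3Q in H1299 and higher in K3Q in each A549 pair, a difference between lines of log2 -1.90 ± 0.18 (edgeR adjusted p = 2.29e-05).

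**Figure D5:**
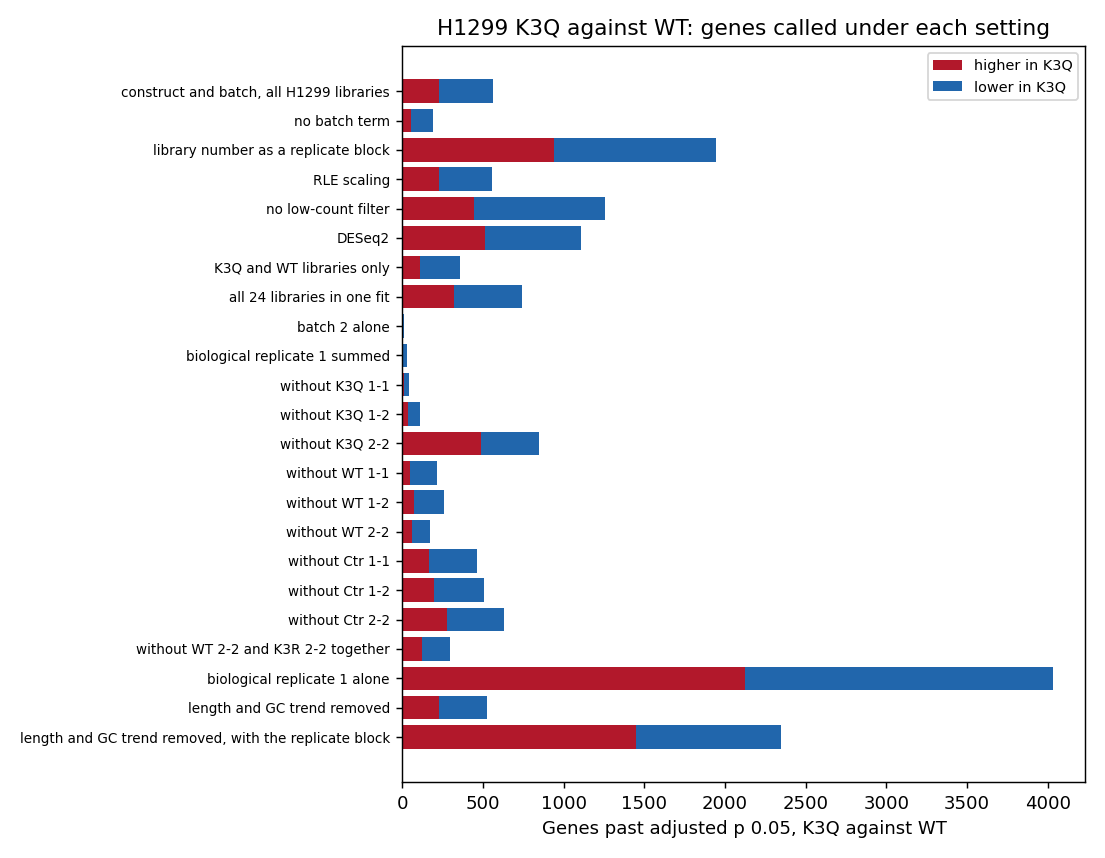
Number of genes past an adjusted p of 0.05 in H1299 K3Q against WT under each fit (horizontal axis), with genes higher in K3Q in red and lower in blue. The count runs from 8 in batch 2 alone to 4033 with biological replicate 1 alone, against 563 with construct and batch over all H1299 libraries.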

How the data were processed

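Polyadenylated RNA of A549 and H1299 cells was sequenced after preparation with a SMARTer kit, per the labels' protocols. The authors deposited 1 table of raw counts, whole numbers of reads for 59385 gene symbols in 24 libraries, and every column was assigned to a sample by its title. Per the submitters' processing notes, FastQC, cutadapt, STAR and featureCounts were used with GRCh38. Their versions, strand setting and annotation were not given in the sources used here, so a gene and an overlapping or antisense partner may share reads. The counts were made without molecular identifiers, and floors cover counting error only. The intervals rest on the standard error of the edgeR quasi-likelihood test, so they also include the spread between libraries.

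Starting from the counts, genes were filtered with filterByExpr and TMM scaling was applied. The quasi-likelihood test of edgeR was run on the 12 H1299 libraries with construct and batch as terms (edgeR 4.0.16, limma 3.58.1, R 4.3.3). P-values were adjusted by the Benjamini-Hochberg method over the 16262 genes tested and called under 0.05. The standard error is the absolute log2 difference over the square root of the F statistic. Principal components used log2 CPM with a prior count of 2. Gene positions are those of RefSeq on GRCh38.p14, matched by symbol, and transcript lengths come from GENCODE. A count of 0 was read as allowing up to 3 counts.

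The named genes were SIRT6 and the other sirtuins, the 12 largest rises and 12 largest falls among genes that passed, had the same sign in all 3 same-numbered pairs and averaged 1 or more in log2 CPM, up to 3 members of each gene list with a member that passed, and the 3 lowest p in each direction of the interaction. Genes of lowest p, genes that passed against Ctr and further list members were named after their values were seen. A few genes that the rule names are not reported here. The members of the comparison and the gene lists were chosen with earlier results of these data known.

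Over all genes, deviations of same-numbered libraries from their group means had correlations of 0.134 to 0.549 over 18 pairs of groups and numbers, and 0.134 to 0.355 for K3Q with WT, so the number was taken to pair libraries and the fit with the replicate block is given beside results it changes. These correlations also hold the batch shift. Libraries of 1 group differed by more than sampling noise in H1299. On simulated counts of 15979 genes for K3Q against WT, the fit recovered 39% of 100 genes changed 1.5-fold and 95% of 100 changed 3-fold, with 9 false calls among 15779 unchanged genes. The changed genes were drawn only from genes of higher mean count. The simulated libraries were independent, with no batch shift, pairing or outlying library. These rates therefore need not hold for the real libraries or for genes of low count. The alternatives included DESeq2 1.42.0.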

Additional observations from a re-analysis of the deposited data

Results flagged for a closer look

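For 6 genes, the 3 of lowest p in each direction, the K3Q minus WT difference differed between H1299 and A549. The test was the interaction term of the edgeR quasi-likelihood test over 24 libraries (Benjamini-Hochberg adjusted over 18102 genes). The SIRT6 transcript difference also differed between the lines (log2 2.22 ± 0.45, adjusted p = 0.026 in the same test), so line and SIRT6 amount cannot be told apart. The difference in H1299 minus that in A549 was a log2 of 1.14 ± 0.16 for DUSP23 (adjusted p = 0.00156), 2.76 ± 0.47 for VSTM1 (0.00838), 0.92 ± 0.16 for QTRT1 (0.00927), -1.90 ± 0.18 for TFPI (2.29e-05), -1.14 ± 0.14 for FAM3C (0.00108) and -3.82 ± 0.49 for FAM20C (0.00118). FAM20C, a Golgi kinase of secreted proteins, had 0.56, 0.20 and 0.62 CPM in K3Q and 4.48, 4.50 and 10.7 CPM in WT of H1299, and 75.4, 49.5 and 51.2 CPM in K3Q and 54.5, 53.6 and 54.4 CPM in WT of A549. VSTM1 had 8.20, 7.67 and 5.56 CPM in K3Q and 2.20, 2.17 and 1.60 CPM in WT of H1299, and 0.66, 0.61 and 0.87 CPM in K3Q and 1.62, 1.34 and 1.11 CPM in WT of A549. All 6 passed with A549 libraries K3Q 1-2 and 2-2 summed (adjusted p 9.35e-05 to 0.0249) and without WT 2-2 and K3R 2-2 (adjusted p 9.39e-05 to 0.0277). With no batch term QTRT1 (adjusted p = 0.14) and TFPI (adjusted p = 0.0793) did not pass, and the other 4 did (adjusted p 0.00323 to 0.033).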

How the results depend on the processing

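The number of genes past the threshold in K3Q against WT, 563 with construct and batch, was 188 with no batch term, 1946 with the library number as a replicate block, 1258 with no low-count filter, 1108 with DESeq2, 354 with the K3Q and WT libraries only, 8 in batch 2 alone, 25 with biological replicate 1 summed, 41 to 849 leaving out each library in turn, 297 without WT 2-2 and K3R 2-2, 4033 with biological replicate 1 alone and 2344 with the length and GC trend removed and the replicate block. Of those calls, 61.7% were higher in K3Q with trend and block and 48.4% with the block, against 40.7% with construct and batch. RLE scaling gave 553, all 24 libraries in 1 fit 742 and removal of the trend with batch 521. For WT against Ctr, 659 with construct and batch, the counts were 409 with no batch term, 1585 with the block, 1301 with no filter, 995 with DESeq2, 90 in batch 2 alone, 93 with replicate 1 summed, 245 to 590 leaving out each library, 358 without WT 2-2 and K3R 2-2, 1493 with replicate 1 alone and 2471 with trend and block. For K3Q against Ctr, 10 with construct and batch, they were 136 with the block, 260 with no filter, 117 with DESeq2, 43 with all 24 libraries, 1 in batch 2 alone, 1 with replicate 1 summed, 3 to 10 leaving out each library, 41 without WT 2-2 and K3R 2-2, 2028 with replicate 1 alone and 240 with trend and block. For the interaction, 119, they were 15 with no batch term, 556 with the block, 528 with no filter, 40 with the A549 K3Q pair summed and 63 without WT 2-2 and K3R 2-2. In these ranges each library means each K3Q, WT and Ctr library of H1299, and no K3R library was left out alone. The cause of these shifts was not tested. The alternatives without WT 2-2 and K3R 2-2, with replicate 1 alone, with the trend removed and with the A549 pair summed were chosen after seeing the data.

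Of the 59 named genes that passed in K3Q against WT, 59 kept their direction in each alternative that gave them a value (22 each, except 18 for SPANXB1). The genes were chosen on the same libraries, so the kept direction was largely set by the choice and carries no test. In each of the 22 alternatives 3 genes passed: SERINC2, TGFB2 and FAM3C. With batch 2 alone 53 named genes no longer passed, as did 43 without K3Q 1-1. Against Ctr, 40 of the 59 passed for WT in the fit with batch and 50 with the block, and 1 and 5 for K3Q. Between constructs, 17 passed for K3Q against K3R with batch and 45 with the block. Over all tested genes, 4.05%, 0.0615% and 0.449% passed in these 3 comparisons with batch, and 1585, 136 and 526 genes with the block. The 59 were chosen on the same K3Q and WT libraries, so these counts describe position and carry no test. In simulated counts 39% of changes of 1.5-fold were recovered among genes of higher mean count, so smaller changes were often not detectable with 3 libraries a group. Those counts held no batch shift, pairing or outlying library, so the rate need not hold for the real libraries.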
